A study of Mus musculus with 3 samples.

Results

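Circular RNAs (circRNAs) of mouse plasma exosomes were compared between the library coded B1 and the library coded A1. The members are all 563 rows of the deposited circRNA table, 1 row for each circRNA, and no value was used to choose them. Of these, 283 had at least 1 junction read in A1 or B1 and enter the ratios below, and 280 had none in either. By the study's tables, A1 is the library of the model mice and B1 that of model mice given electroacupuncture (EA). The remaining library, C1, is by these tables that of the normal mice. GEO's sample titles assign the libraries to other groups: by title, A1 is the normal group, B1 the model group and C1 the model + EA group. The libraries are therefore called by their codes, and whether a ratio below compares EA with no EA depends on which assignment is taken.

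The mice were male C57BL/6 animals of wild type genotype, and no age is stated. Under the study's assignment, A1 and B1 come from mice fed a high-fat diet for 6 weeks and then injected with streptozotocin (STZ), a toxin of islet β cells, for 7 days. C1 comes, under the same assignment, from normal mice fed basic forage. By the study's text, mice whose blood glucose stayed below its limits were injected with STZ a second time. It does not say how these mice were divided between the groups. The mice of B1 were then given EA at the acupoints Zusanli and Pishu, with 12 sessions of 15 minutes each, spread over 4 weeks, at a frequency of 2 Hz. Each group held 10 mice, and no source used here says whether 1 library stands for 1 mouse or for a pool. There was 1 library a side, so the spread between mice is not known, and counts and ratios are given with no test across samples and no p-value.

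In circRNA formation the splicing machinery joins the 3′ end of a downstream exon to the 5′ end of an upstream one, or of the same exon, which leaves a closed circle without free ends. Such circles resist exonucleases, and circRNAs are known in red cells, platelets, plasma and extracellular vesicles. Exosomes are small vesicles that many cell types release into the blood, so a circRNA in plasma exosomes cannot be assigned to 1 tissue from its host alone.

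A read counts a circRNA only where it spans the back-splice junction, so the junction sequence is the identity of each circle. Those of 4 circRNAs among the most abundant of 1 library and of 3 found in both libraries are given here, because the comparison turns on them. Each is 30 bases of GENCODE M21 transcript sequence on mm10, 5′ to 3′ on the strand of the host, with the last 15 bases before the junction in lower case and the first 15 after it in capitals.
Tlk1 (A1 only, exons 2 to 3, chr2:70770004-70786995, minus strand): gacaaagaatcagagGTGCAATGGATGAGC
Rad52 (A1 only, exons 10 to 11, chr6:119920110-119921028, plus strand): ttctaggtagcagagCAGTACTTCCAGCCC
Nmt1 (B1 only, exons 3 to 5, chr11:103046379-103055289, plus strand): agagtttctcttgtgATGACCTCTTTGCCA
Slc16a10 (B1 only, exons 2 to 3, chr10:40076564-40080807, minus strand): ccttacgttcacttgCGTGGGTGGGCTCGC
Med13l (both, exon 2, chr5:118593333-118593570, plus strand): atcatgaactgcaggGCTGAACTCACAGGA
Rps6kb1 (both, exons 2 to 4, chr11:86532772-86535460, minus strand): aaggtgcttaaaaagGGTCAGTTAAATGAA
Chm (both, exons 3 to 4, chrX:113139336-113140786, minus strand): attttgttatgccagAAGAAGCTACTATGG

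Junction sequences also separate the circles that 1 host gives in the 2 libraries. In the next set, the circles of Zcchc8 and of Strn3 that share a start carry the same capitals, and those of Arid1a, which share an end, carry the same lower case letters.
Zcchc8, exons 3 to 7 (A1 only): agtgaaggcaaaaagTGGTATACTGGTGAG
Zcchc8, exons 3 to 5 (B1 only): aaggaagcttttagtTGGTATACTGGTGAG
Strn3, exons 2 to 16 (A1 only): ttgacaataaaacggGCACGGATTGCATTT
Strn3, exons 2 to 7 (both): atggtacagaatgggGCACGGATTGCATTT
Strn3, exons 2 to 3 (B1 only): ccacctttgaatcagGCACGGATTGCATTT
Arid1a, exons 3 to 4 (A1 only): ccctccagcttgcctATTCCACCTTATGGC
Arid1a, exons 2 to 4 (B1 only): ccctccagcttgcctTCATCCAGTCCAATG
Over all 170 circles whose junction was read from coding sequence, the 30 bases were distinct in each.

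The libraries shared few circRNAs. A1 held 157 circRNAs and B1 held 140, and 14 of the 283 were found in both, which is 4.95% (exact Clopper-Pearson 95% interval 2.73% to 8.16%). A further 143 had reads in A1 only and 126 in B1 only. At the host level 18 of 254 hosts were found in both, with 144 in A1 and 128 in B1. Junction reads added up to 4125 in A1 and 4372 in B1, so a count of 0, taken to allow up to 3 reads, allows a share of up to 0.0727% in A1 and 0.0686% in B1. The interval covers the number of circRNAs only, taken as independent, and the limits cover the counting of reads only. Neither covers the spread between mice.

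The circRNAs of 1 library were not mainly those at the limit of detection. The median circRNA found in A1 had 25 reads (quartiles 16 and 34) and the median one in B1 had 33.5 (quartiles 20 and 41). Of the 100 circRNAs with at least 20 reads in A1, 11 had any read in B1, and of the 106 with at least 20 reads in B1, 10 had any read in A1. At 40 reads or more the numbers were 6 of 22 for A1 and 4 of 40 for B1. Only 10 of the circRNAs found in 1 library had 3 reads or fewer. The reads were spread widely over circRNAs, since the 10 most abundant held 16.7% of the reads of A1 and 15.0% of those of B1, and 46 circRNAs made up 50% of the reads in each library.

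**Figure D1:**
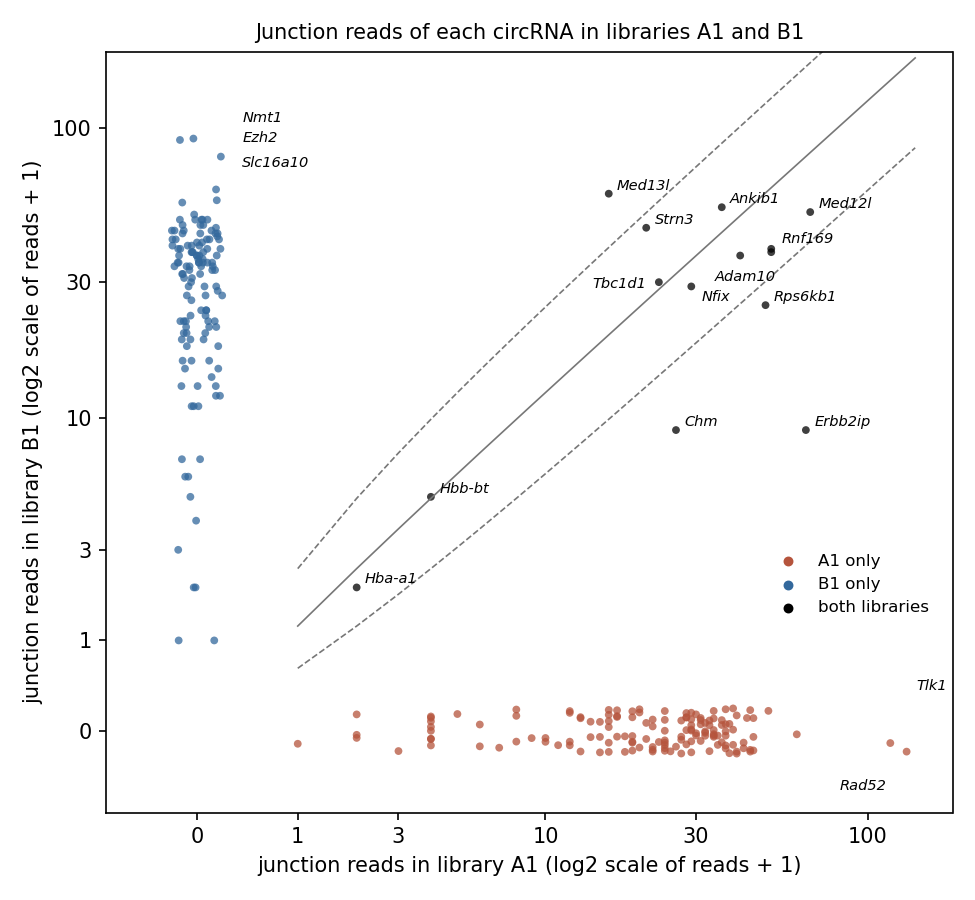
Junction reads of the 283 circRNAs in library A1 (x axis) and library B1 (y axis), both on a log2 scale of reads + 1, with points at 0 spread sideways for display. The solid line marks a scaled ratio of 1 and the dashed lines 2-fold, and only 14 points (black) leave the axes.

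Ratios were taken as B1 over A1 after the authors' factor for each library, which multiplies the ratio of counts by 0.811. With 0.1 reads in place of 0, as in the deposited values, 127 of the 283 circRNAs (44.9%) were at least 2-fold higher in B1 and 146 (51.6%) at least 2-fold lower. Over all 563 rows these shares are 22.6% and 25.9%. All but 4 of these calls are circRNAs with reads in 1 library only, so the call of nearly every circRNA says which library held it. Where the whole exact interval of the ratio had to lie beyond 2-fold, 115 (40.6%) were higher and 127 (44.9%) lower. Taking the groups from GEO's titles instead, model + EA over model is C1 over B1, with 291 circRNAs higher and 130 lower of 428, so that 69.1% of the calls were higher against 46.5% here. These shares are not like for like: C1 held 320 circRNAs, 206 of them with fewer than 10 reads, and B1 held 140, with 15 such. With 0.1 reads in place of 0, a circRNA with 1 read in C1 and none in B1 is called higher.

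The 14 circRNAs with reads in both libraries are the ones whose ratio does not rest on the value put in place of 0. They held 481 reads in A1 (11.7%) and 435 in B1 (9.95%), and 10 of them lay within 2-fold. The 1 that was higher in B1 is a circle of Med13l, a subunit of the Mediator kinase module that links transcription factors to RNA polymerase II, with 16 reads in A1, 60 in B1 and 15 in C1. Its ratio was 3.04 (exact 95% interval 1.73 to 5.66). The interval begins below 2 with the authors' factors, but at 2.13 without scaling, at 2.01 by total junction reads and at 2.52 by TMM. The counts of A1 and C1 were alike, and that of B1 was higher.

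The 3 that were lower in B1 were circles of Erbb2ip, Chm and Rps6kb1. Erbb2ip, the host that encodes Erbin, a scaffold of ErbB2 at the basolateral membrane, had 65 reads in A1, 9 in B1 and 21 in C1. Its ratio of 0.112 (0.0492 to 0.227) is, with the authors' factors, the 1 ratio of the 14 whose whole interval lies beyond 2-fold. Under each of the other 3 scalings there were 2, this circle and that of Med13l. Chm, which encodes the Rab escort protein needed to attach lipids to Rab GTPases, had 26 reads in A1, 9 in B1 and none in C1, a ratio of 0.281 (0.116 to 0.619). Rps6kb1, the S6 kinase downstream of mTOR and insulin, had 49 reads in A1, 25 in B1 and 17 in C1. Its ratio was 0.414 (0.245 to 0.683), but 0.51 without scaling and 0.604 with the TMM factors of edgeR, where it is no longer past 2-fold.

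Close counts in both were found for the others. Rnf169, a ubiquitin ligase family member that acts at DNA breaks, had 51 reads in A1 and 39 in B1 (ratio 0.621, 0.398 to 0.960). Med12l, another subunit of the Mediator kinase module, had 67 and 52 (0.63, 0.430 to 0.918). The intervals of both end below 1 with the authors' factors, but include 1 without scaling (up to 1.18 for Rnf169 and 1.13 for Med12l), by total junction reads and by TMM. Adam10, the sheddase of Notch and amyloid precursor protein, had 41 and 37 (0.732, 0.457 to 1.17), and Nfix, a transcription factor, had 29 in each (0.811, 0.468 to 1.41). Ankib1, a ubiquitin ligase, had 36 and 54 (1.22, 0.784 to 1.91), and Tbc1d1, a Rab GTPase-activating protein in insulin-driven GLUT4 traffic, had 23 and 30 (1.06, 0.594 to 1.91).

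A circle of Strn3, a striatin scaffold of protein phosphatase 2A, had 21 reads in A1, 46 in B1 and 19 in C1, a ratio of 1.78 (1.04 to 3.14). It passes 2-fold without scaling (2.19), and also by total junction reads and by TMM (2.59). There were also circles over globin genes, Hba-a1 with 2 reads in each and Hbb-bt with 4 and 5, too few for a direction, and near-identical globin copies can share such reads. Relative to the authors' factors, each other scaling moves every ratio up. The shift (log2) is 0.30 without scaling, 0.22 by total junction reads and 0.54 with TMM. The authors' factors multiply the ratio of counts by 0.811 and TMM multiplies it by 1.18, so they move it in opposite directions.

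**Figure D2:**
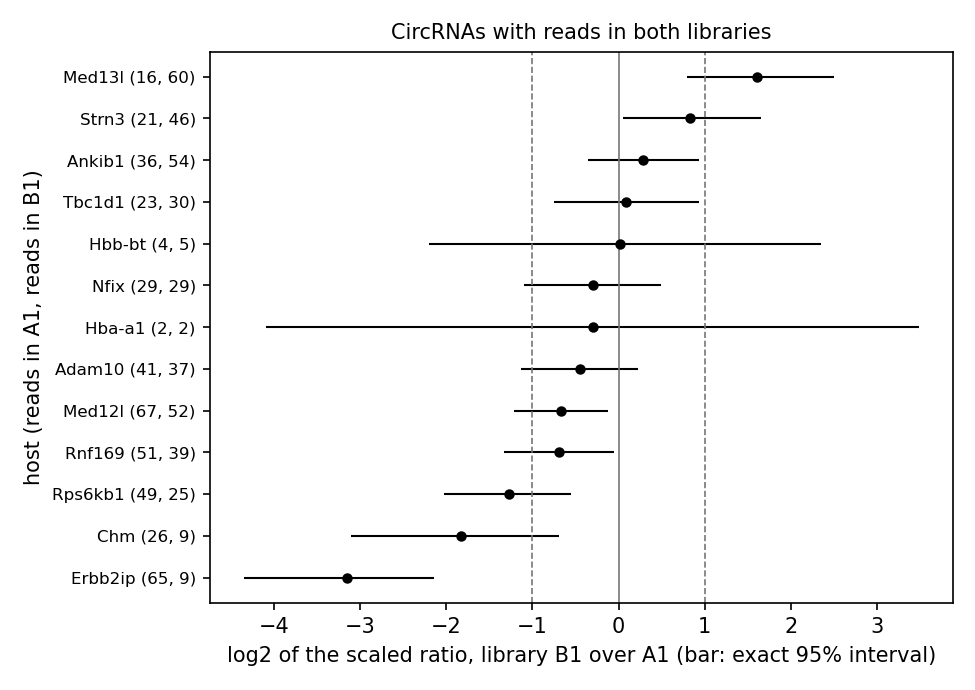
Log2 of the scaled ratio of B1 over A1 for 13 of the 14 circRNAs with reads in both libraries, with exact 95% intervals as bars, the solid line at a ratio of 1 and dashed lines at 2-fold. Med13l lies highest at 3.04 and Erbb2ip lowest at 0.112, and with the authors' factors, used here, only the bar of Erbb2ip lies wholly beyond a dashed line (without scaling, that of Med13l does too).

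The shared circRNAs were also the ones most often found in C1. Of the 14, 11 (78.6%) had reads in C1, compared with 21 of the 126 found in B1 only (16.7%) and 8 of the 143 found in A1 only (5.59%). Those of Tbc1d1 and Chm were among the 3 without reads in C1. C1 is the shallowest of the libraries, with 2913 junction reads over 320 circRNAs and a median of 7 reads, so an absence there is weaker than one in A1 or B1.

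The most abundant circRNAs of A1 were those of Tlk1 and Rad52. Tlk1, the Tousled-like kinase of chromatin assembly during replication, had 131 reads in A1, none in B1 and 19 in C1. Against a limit of 3 reads for the 0, B1 was at least 53.8-fold lower. This bound, like the other folds against 0 below, takes the count above 0 and the authors' factors as exact. The other scalings would make the folds lower in B1 smaller. Rad52, a mediator of homologous recombination, had 117 reads in A1 and none in B1 or C1, at least 48.1-fold lower in B1. Ikzf1, the lymphoid transcription factor Ikaros, had 61, 0 and 3 reads (at least 25.1-fold lower in B1). Lrch3 (50 reads), Nsd1 (45), Map3k7 (45), Prrc2b (45), Cd2ap (44) and Rad23b (44) followed, each with none in B1.

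In B1 the leading circRNA came from Nmt1, the N-myristoyltransferase that attaches myristate to the N terminus of signaling proteins. It had 92 reads in B1 and none in A1 or C1, so B1 was at least 24.9-fold higher. Ezh2, the histone H3 lysine 27 methyltransferase of Polycomb, had 0 reads in A1, 91 in B1 and 56 in C1, at least 24.6-fold higher in B1. Slc16a10, which carries aromatic amino acids and also thyroid hormone across membranes, had 0, 80 and 0 (at least 21.6-fold). Zwilch, of the kinetochore complex that serves the spindle checkpoint, had 0, 62 and 19 (at least 16.8-fold). Sox6, a transcription factor of erythroid and muscle development, had 57 reads from its leading circle, and Ankfy1, an endosomal Rab5 effector, had 56, both with none in A1 or C1.

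The hosts were grouped by their known roles, and the counts of each role are read against 44.9% higher and 51.6% lower over all 283. DNA replication and repair had 6 circRNAs, of which none was higher and 5 were lower (83.3%). Their reads were 398 in A1 and 39 in B1, and all 39 came from Rnf169. Tlk1 and Rad52 gave most of the reads in A1. Phosphoinositide metabolism had 9, with 2 higher and 7 lower (77.8%). Fam126a, part of a complex that recruits a phosphatidylinositol 4-kinase to the plasma membrane, had 42 reads in A1. Inpp4b, an inositol polyphosphate 4-phosphatase, had 39 from its leading circle, and Pip5k1b, a phosphatidylinositol 4-phosphate 5-kinase, had 37 from its own, all of them with none in B1. Pik3cb, the p110β catalytic subunit of PI3K, went the other way with 0 in A1 and 49 in B1.

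Kinases, phosphatases and their scaffolds had 25, with 7 higher (28.0%) and 16 lower (64.0%), and 503 reads in A1 against 333 in B1. Cytoskeleton and cilium hosts had 17, with 5 higher and 12 lower (70.6%), and 383 against 141 reads. Cd2ap, an adaptor that ties the slit diaphragm to actin, had 44 reads in A1 only, while Iqgap2, a Rac and Cdc42 scaffold, had 45 in B1 only. Transcription factors and coregulators were the largest role, with 31 circRNAs, 12 higher (38.7%), 17 lower (54.8%) and 2 within 2-fold. Cell cycle, centrosome and spindle hosts had 18, with 7 higher and 11 lower. Their read sums were nearer to each other, 230 in A1 and 279 in B1, because Zwilch, Cntln (51 reads), Cep128 (47) and Ckap5 (39) were abundant in B1.

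Receptors, ligands and second messengers leaned to B1: 11 of 16 were higher (68.8%) and 4 lower, with 153 reads in A1 and 428 in B1. A circle of Adam10 not matched to annotated exons had 49 reads in B1 and none in A1. Pde5a, the cGMP phosphodiesterase, had 45 and Cd46, a complement regulator, had 42, both with none in A1. Metabolic enzymes had 14, with 10 higher (71.4%) and 4 lower, and 101 against 347 reads. Beside Nmt1 they held St3gal5, the GM3 ganglioside synthase, with 0 in A1, 42 in B1 and 10 in C1, and Ptpla, with 39 in B1 only. Prpsap2, a regulator of phosphoribosyl pyrophosphate synthesis, had 40 in A1 only. Vesicle and membrane traffic had 20, with 11 higher (55.0%) and 8 lower, and 153 against 373 reads. Beside Ankfy1 its leading members were Optn, an autophagy receptor (49 reads in B1), and Rabgef1, the Rab5 exchange factor (44), both with none in A1.

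Chromatin and DNA methylation hosts had 26 circRNAs, 15 higher (57.7%) and 11 lower, with 264 and 431 reads. Beside Ezh2, Adnp had 45 reads from an intronic circle and Atad2b had 40 in B1 only, whereas Nsd1, a histone H3 lysine 36 methyltransferase, had 45 in A1 only. RNA processing and translation had 25, with 11 higher (44.0%) and 14 lower, which is near the shares over all 283. Its leading circles in B1 were those of Eif4g3 (46 reads), Dkc1, the pseudouridine synthase of H/ACA particles and telomerase (44), Zcchc8 (42) and Zcchc11 (39). Ubiquitin and SUMO had 19, with 9 each way. Among them were Ube3a (44 reads) in B1 only and Pias1, a SUMO ligase (40), in A1 only. Solute carriers and channels had 7, with 3 higher and 4 lower. Nuclear transport had 2, Ipo7 (35) and Lbr (29), both in B1 only.

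The median log2 ratio of each role was taken with 3 reads in place of 0, which is a description and no bound, since members of both libraries enter it, beside -0.72 over all 283 circRNAs (-4.62 with 0.1 reads in place of 0). It was -4.09 for DNA replication and repair, -3.42 for phosphoinositide metabolism, -3.18 for cytoskeleton, -2.42 for transcription factors, -2.30 for kinases, -2.04 for solute carriers and -1.51 for cell cycle. It was 3.18 for receptors, 3.11 for nuclear transport, 2.64 for metabolic enzymes, 1.69 for chromatin and 1.49 for vesicle traffic. RNA processing (-0.89) and ubiquitin (-0.72) lay near the median of all, and that of ubiquitin changes sign to 0.28 with 0.1 reads in place of 0. The globins, with 3 circRNAs, stood at 0.02. Since circRNAs split into those of 1 library and those of the other, a role's median mainly says which library held more of its members.

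**Figure D3:**
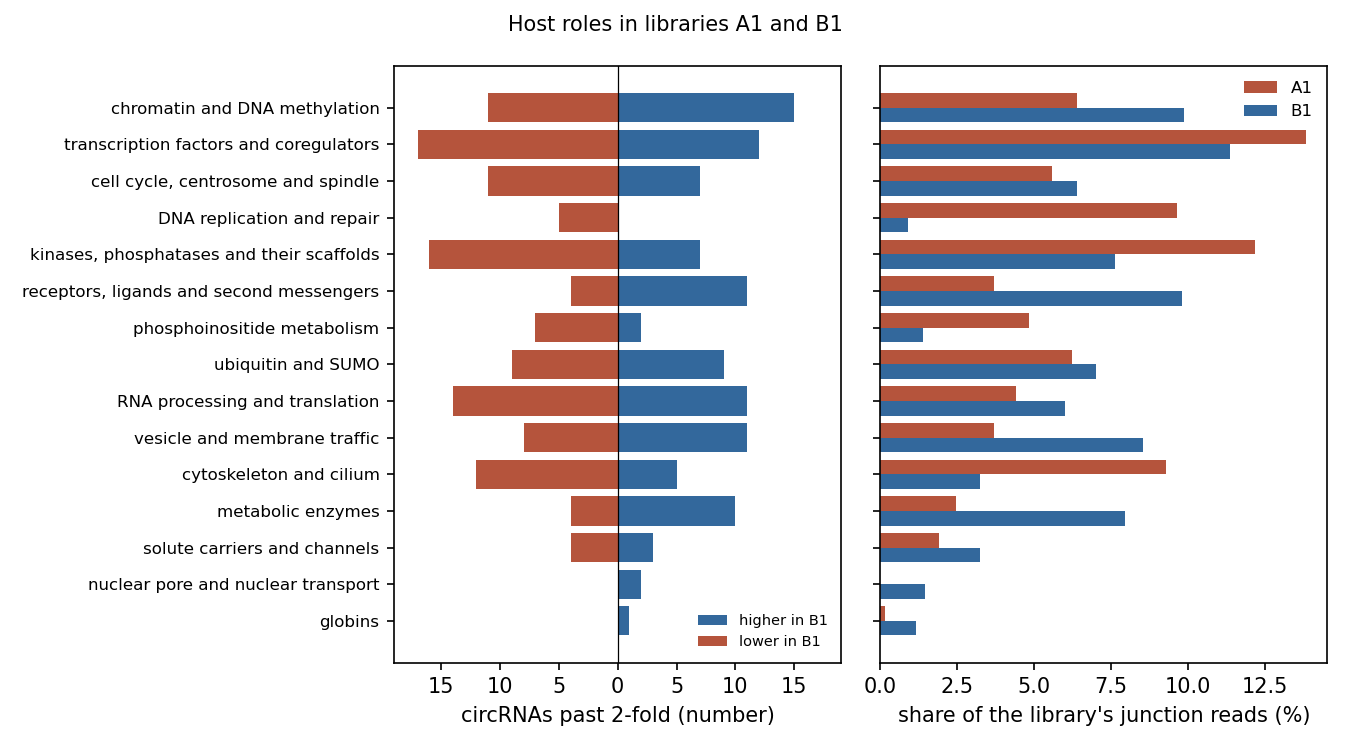
Left, the number of circRNAs at least 2-fold higher (blue) or lower (red) in B1 than in A1 for each host role; right, the share of each library's junction reads that the role held, in percent. DNA replication and repair held 9.65% of A1 and 0.892% of B1, and metabolic enzymes 2.45% and 7.94%.

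The study named hosts for thyroid hormone signaling and for phosphatidylinositol signaling. It chose them on these libraries, so their direction is no independent evidence, and their counts stand beside 44.9% higher and 51.6% lower over all 283. The 10 circRNAs of the thyroid hormone hosts split into 5 higher (50.0%), 4 lower and 1 within 2-fold, near the shares over all, with 165 reads in A1 and 297 in B1 and a median log2 ratio of 0.47. Med13l and Slc16a10 are given above, Med13, the paralog of Med13l, had 32 reads in B1 only and Ncoa2, a nuclear receptor coactivator, had 24 in B1 only. Tsc2, the brake on mTORC1, had 39, Plcg2, a phospholipase C, 16 and Prkca, protein kinase C alpha, 15, all in A1 only. The 6 circRNAs of the phosphatidylinositol hosts were all lower, with 145 reads in A1, none in B1 and a median of -3.07 with 3 reads in place of 0. These hosts were taken from the study's list of downregulated hosts alone, so their shared direction was set by that choice. The thyroid hormone hosts came from its upregulated and its downregulated list, so the 2 sets cannot be compared in direction.

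Of the 18 hosts found in both libraries, 6 gave a circRNA found in A1 only and another found in B1 only. In 4 of these the circles shared the start and in 1 the end. Strn3 gave 6 circles, with 86 reads in A1 and 143 in B1 over all of them (ratio 1.35, 1.03 to 1.78). Its circle of exons 2 to 16 had 42 reads in A1 and none in B1, that of exons 4 to 7 had 23 and 0, and that of exons 2 to 3 had 0 and 31. The circle of exons 9 to 10 had 0 and 34. A circle ending 12 nt from the shared one had 0 and 32 as a row of its own. No annotated transcript has both of its ends as exon boundaries. Zcchc8, a subunit of the nuclear exosome targeting complex, had 6 reads in A1 from exons 3 to 7 and 42 in B1 from exons 3 to 5, a ratio over the host of 5.68 (2.40 to 16.3).

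Arid1a, a subunit of the BAF chromatin remodelling complex, had 40 reads in A1 from exons 3 to 4 and 7 in B1 from exons 2 to 4, a ratio of 0.142 (0.0537 to 0.320). Ep400, the ATPase of another remodelling complex, had 20 in A1 from exons 2 to 3 and 16 in B1 from exon 2 alone, a ratio of 0.649 (0.315 to 1.32). Rock1, a serine/threonine kinase of the actin cytoskeleton, had 12 in A1 from exons 7 to 9 and 18 in B1 from exons 7 to 11 (1.22, 0.555 to 2.77). Erbb2ip added to its shared circle another with 44 reads in A1 only and another with 19 in B1 only, so that the host had 109 and 28 reads (0.208, 0.132 to 0.318). For Ep400 and Rock1 the host sums include a ratio of 1 while each circle is found on 1 side only.

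**Figure D4:**
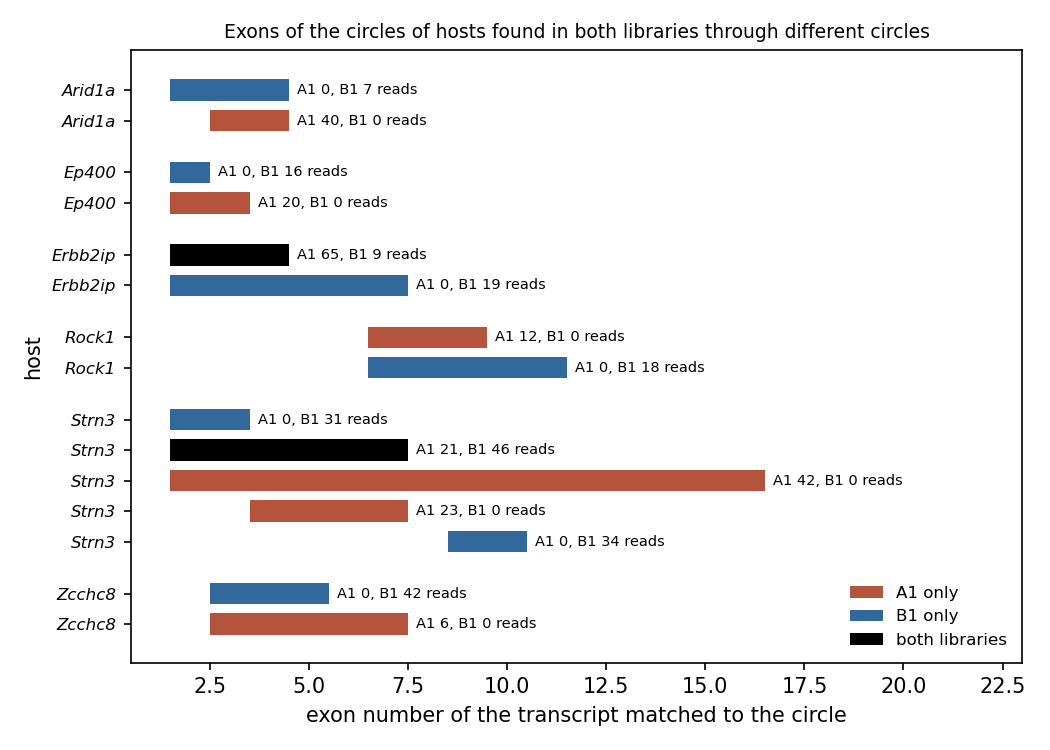
Exons held by each circle, counted along the transcript matched to it, for the 6 hosts that gave different circles in the 2 libraries, with the reads of A1 and B1 beside each bar (red, A1 only; blue, B1 only; black, both). Circles of Strn3 and Erbb2ip for which no annotated transcript has both ends as exon boundaries are left out. Strn3 shows 1 circle of exons 2 to 16 with 42 reads in A1 against a circle of exons 2 to 3 with 31 in B1.

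The circRNAs of the libraries differed in type. Circles that the authors annotated as exonic were 88.8% of the 143 found in A1 only (exact 95% interval 82.5% to 93.5%) and 75.4% of the 126 found in B1 only (66.9% to 82.6%). They held 90.4% of the reads of A1 and 78.3% of those of B1. Sense overlapping circles were 8.39% and 17.5%, and intronic ones 2.80% and 7.14%. The shares with an identifier from an earlier database were close, at 64.3% and 62.7%, and 12 of the 14 shared circRNAs (85.7%) had one. The intervals cover the number of circRNAs only, not the spread between mice.

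The genomic span from start to end had a median of 6837 nt for the A1-only circRNAs, 4072 nt for the B1-only ones and 10779 nt for the shared ones. Circles that begin at the second exon of the matched transcript, counted from its 5′ end, were 50 of 125 in A1 only, 39 of 96 in B1 only (40.6%) and 10 of 12 shared (83.3%). The introns upstream of the circles had median lengths of 9470, 9702 and 26064 nt in the same order. Long flanking introns and a start at exon 2 are known for abundant circRNAs, and here the shared circRNAs had more of both than those of either library alone, over only 12 circles.

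Markers of blood and other cell types were looked up among the hosts. Of 15 erythroid markers 9 were hosts in the table, with 17 reads in A1, 50 in B1 and 91 in C1. In B1 the circle over Hbb-bs, β-globin, gave 43 of these with none in A1 or C1, and Hemgn, an erythroid nuclear factor, had 11 in A1 only. The circle over Hbb-bs was not matched to annotated exons, and near-identical globin copies can share its reads. Of 7 platelet and megakaryocyte markers, only Gp6, the platelet collagen receptor, was a host in the table. It had 37 reads in A1 and none in B1 or C1, from a circle that was also not matched to annotated exons. No marker on the lists for lymphocytes, muscle, adipocytes, endothelium, liver cells, myeloid cells, islets or acinar cells was a host in the table. These lists are short, and hosts on none of them, such as Ikzf1, can also be known from 1 cell type. The part of blood cell RNA in the other differences was not tested.

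The study's qPCR primers for 11 of 12 hosts could be placed on a circle of the host in the table, in each case across the junction. For the circles with reads in A1 or B1, Pwwp2a had 34 reads in A1 and 0 in B1, Hipk2 35 and 0, and Btaf1 0 and 34. Tlk1, Prrc2b, Ezh2, Zwilch, Cep128 and Pde5a have the counts given above, and the pair for Strn3 lies on the A1-only circle of exons 2 to 16. The pair for Tulp4, whose circle had 0 reads in A1 and 11 in B1, was not placed.

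The miRNAs that the study lists for 20 of these circRNAs were compared with the circles by seed, the bases 2 to 8 of the miRNA, in capitals below. Of the 100 listed pairs, 83 had a miRNA sequence and a circle that could be read, and 76 of these held at least 1 match while 7 held none. The study predicted these pairs from sequence with TargetScan and miRanda, so matches in most of them are no independent evidence for the pairs. On the Inpp4b circle at chr8:82068932-82071835, neither mmu-miR-7092-3p, whose match AAAGAAC was in 51 of 462 circles (11.0%), nor mmu-miR-7090-3p had a match, which says only that these letters are not in the circle. For Med13l, 4 of its 5 miRNAs share 1 seed and so 1 match. The miRNA sequences are from RefSeq with build GRCm38.p6.
mmu-miR-6911-5p: uGGGCUGAgugggucuguggcau
mmu-miR-7028-5p: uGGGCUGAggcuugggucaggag
mmu-miR-7079-5p: aGGGCUGAggcagugaguccug
mmu-miR-7662-5p: aGGGCUGAggccuggauccagc
Med13l circle, match in capitals, from position 70 after the junction: tggacccataattTCAGCCCc
The letters TCAGCCC were found, on the strand of the circle, in 24 of the 462 circles read (5.19%). In the Rps6kb1 circle, AAATCAG, the match of mmu-miR-29a-5p, lies at position 113 and was in 39 of the 462 (8.44%). A match is a description of letters and no measure of binding.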

How the data were processed

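The 3 libraries, 1 per group, were stranded paired-end libraries of plasma exosome RNA after rRNA removal. Per the labels, the submitters' processing notes name cutadapt 1.9.3, STAR 2.5.1b and the build mm10, and the study's methods name DCC for circRNAs and circBase for annotation. The table deposited by the authors holds counts of junction reads and a log2 value per library. To obtain the deposited log2 values, the authors multiplied counts by a factor for each library (1.28 for A1, 1.03 for B1, 1 for C1), with 0.1 reads in place of 0. No source used here names the basis of these factors. Counts were scaled by these factors and called at 2-fold. Ratios and shares carry exact 95% intervals. A fold against 0 is a lower bound against 3 reads, with the other count and the factors taken as exact. Exons and sequences come from GENCODE M21, without a genome sequence, so splice signals beside the junctions were not analysed here. Software was Python 3.11.15, scipy 1.17.1 and edgeR 4.0.16 (TMM factors only), and the interval and the call were checked on simulated counts. That check used set fold changes and did not score false calls among unchanged circRNAs. Named circRNAs are those with reads in both libraries, the 15 with the most reads in each, up to 4 per host role by reads, hosts with different circles in both, and hosts with primers, named by the study or on the marker lists. The members and lists were chosen with earlier results of these data known. Some items under these rules are not reported here. The 15 alternatives are given at the close.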

Additional observations from a re-analysis of the deposited data

How the results depend on the processing

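Of the 15 alternatives, those that changed the value in place of 0, the scaling, the fold, the interval or the merging of near rows left the number of circRNAs higher in B1 between 115 and 128 and the number lower between 127 and 146, against 127 and 146. Under 2 settings that test fewer circRNAs by construction, either number moved by more than 1.5 times. With an earlier identifier 80 were higher and 95 lower. Where the larger of both counts had to reach 20 reads, 97 were higher and 92 lower of 197, so the larger number was on the higher side there. By GEO's titles, 291 were higher and 130 lower in C1 than in B1, with 32 found in both. Under these titles the log2 ratio (C1 over B1) turned its sign for 48 of the named circRNAs and left its interval without turning for 5. It stayed within its interval for 6, and named circRNAs without reads in B1 or C1 had no such ratio. B1 is divided by A1 in the main ratio but divides C1 here. A turned sign therefore says only that B1 was the highest or the lowest of the libraries, and does not test the direction. Where B1 or C1 had no reads, the size rests on the value in place of 0. The log2 ratio turned positive for Cd2ap (3.27), Erbb2ip (1.17 for the shared circle), Ikzf1 (4.86) and Tlk1 (7.52). It turned negative, at -9.89 (Nmt1), -9.69 (Slc16a10), -9.20 (Sox6), -9.18 (Ankfy1), -9.04 (Cntln), -8.99 (Adam10, Ccdc171, Elf2, Pik3cb), -8.89 (Eif4g3), -8.86 (Adnp, Akap7, Iqgap2), -8.83 (Dkc1, Rabgef1, Ube3a), -8.80 (Hbb-bs), -8.76 (Cd46, Slc43a1), -8.69 (Atad2b), -8.66 (Ckap5, Ptpla, Zcchc11), -8.50 (Ipo7), -8.46 (Strn3), -8.37 (Med13, Strn3), -8.23 (Lbr), -7.96 (Ncoa2), -7.62 (Erbb2ip), -7.54 (Rock1), -6.18 (Arid1a), -3.86 (Zcchc8), -3.66 (Optn), -3.42 (Strn3), -3.22 (Pde5a), -3.05 (Ep400), -3.02 (Cep128), -2.12 (St3gal5), -2.05 (Med13l), -1.82 (Btaf1), -1.76 (Zwilch), -0.75 (Ezh2), -0.70 (Tulp4). With reads summed over each host, 12 named circRNAs left their interval without turning, and the sign of 7 circles turned to that of their host: Arid1a (-2.82), Ep400 (-0.62), Erbb2ip (-2.26), Rock1 (0.28), Strn3 (0.43 for both A1-only circles) and Zcchc8 (2.51). Under the other scalings, values in place of 0 and merging, the log2 ratios of all 89 stayed within their exact intervals. For named circRNAs without reads in A1 or in B1 this was fixed in advance. Their interval is open on 1 side, and these scalings and values in place of 0 could not take the ratio out of it. The value in place of 0 does not enter the ratio of circRNAs with reads in both. Fewer rows were also tested without low counts (minimum 10), without rows that copies can share, with exonic circRNAs or with host sums, and there both numbers stayed within 1.5 times. No paired analysis was possible because each group holds 1 library, and no replicate could be left out. Depth limits circRNAs with few reads: with 4125 and 4372 junction reads, a count of 0 allows up to 3 reads.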
